A study of Mus musculus with 4 samples.

Results

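The mitochondrial ribosomal protein genes were taken as every gene of the files whose symbol begins with Mrpl or Mrps followed by a number, and 77 of the 24346 gene symbols met this rule. They were examined in hair follicle stem cells (HFSCs) of C3H/HeN mice, sorted as CD49f+ CD34+ cells from the dorsal skin of 4-week-old adults and passaged once a week in the serum-free medium CnT-PR. RNA was sequenced after 10 passages (10p-HFSCs) and after 48 passages (48p-HFSCs), with 2 libraries in each group. Neither group carried an engineered allele or received an agent, and passage number is the labelled difference between them. The sources do not say whether the 2 libraries of a group came from separate cultures or sorts, so p-values measure the spread between these libraries, which may be technical.

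Mitochondria translate the few proteins that their own genome encodes on a ribosome of their own, the mitoribosome, which is distinct from the ribosome of the cytosol. Its RNAs are transcribed inside the organelle, whereas all of its proteins are encoded in the nucleus, made in the cytosol and imported. Proteins named Mrpl belong in general to the large subunit, which forms peptide bonds, and those named Mrps to the small subunit, which reads the mRNA. Some have counterparts in bacterial ribosomes, and others are found only in mitoribosomes. The products of mitochondrial translation are core subunits of the respiratory chain and of ATP synthase, so that the mitoribosome is needed to build the machinery of oxidative phosphorylation.

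By structure, 50 of the members encode proteins of the large subunit and 26 of the small subunit. Mrps30 and Mrps18a carry small subunit names but their proteins sit in the large subunit, and they were counted there. Mrps36, the remaining member, encodes a protein of the oxoglutarate dehydrogenase complex that was once assigned to the mitoribosome. Of the 76 true subunits, 46 have a bacterial counterpart and 30 are specific to mitochondria. A list of 15 genes of the mitochondrial genome, including the ribosomal RNAs that these proteins bind, was also looked for. None of them was among the gene symbols, so they could not be analysed.

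Levels are given as the FPKM that the authors computed for each gene and library, which divides the fragments of a gene by its exon length and by the mapped fragments of the library, so that it can be compared between genes. All 77 members were detected in all 4 libraries and none was under an FPKM of 5.15 in any of them. The median member had an FPKM of 39.8 and 46.2 in the first and the second 10p-HFSC library, and of 40.1 and 64.3 in the 48p-HFSC libraries. This was 3.27, 3.94, 3.44 and 5.74 times the median of all genes tested in the same library. In 10p-HFSCs the lowest member was Mrpl35, at 5.15 and 5.67, and the highest was Mrpl42, at 245 and 319. In 48p-HFSCs the lowest were Mrpl19 (6.0) in replicate 1 and Mrpl41 (5.47) in replicate 2, and the highest were Mrps21 (284) and Mrpl33 (760). The members thus covered a 47.6-fold and a 56.3-fold range of levels in the 10p-HFSC libraries, and a 47.4-fold and a 139-fold range in the 48p-HFSC libraries, although the mitoribosome holds most of its proteins as single copies.

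**Figure D1:**
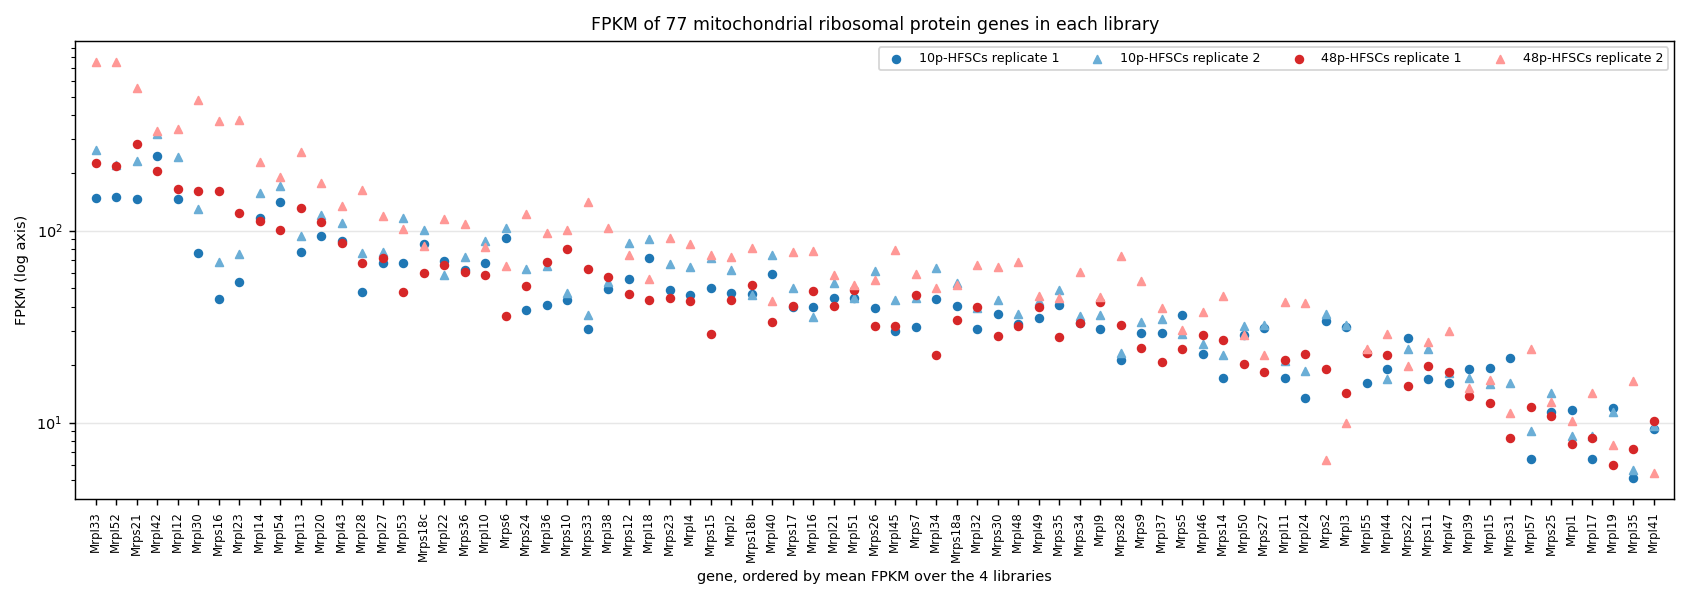
FPKM (log axis) of each of the 77 members in the 4 libraries, with genes ordered by their mean over the libraries; circles are replicate 1 and triangles replicate 2, 10p-HFSCs in blue and 48p-HFSCs in red. The members ran from about 5 to 760 FPKM, and replicate 2 of 48p-HFSCs was the highest point for many of the abundant genes.

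The 5 members of highest mean FPKM were Mrpl33, Mrpl52, Mrps21, Mrpl42 and Mrpl12. Mrpl33, a small protein of the large subunit with a bacterial counterpart, had an FPKM of 147 and 262 in 10p-HFSCs and of 225 and 760 in 48p-HFSCs. Mrpl52, a large subunit protein specific to mitochondria, had 150 and 219 against 217 and 758. For both genes the groups overlapped, since replicate 1 of 48p-HFSCs lay below replicate 2 of 10p-HFSCs. Mrps21, a small subunit protein, had an FPKM of 146 and 230 in 10p-HFSCs and of 284 and 551 in 48p-HFSCs, with no overlap. Mrpl42 had 245 and 319 against 204 and 332. The level of Mrpl12, whose protein forms the stalk to which translation factors bind, was 146 and 241 against 164 and 340. None of these 5 genes was called different between the groups by the test described next, with log2 differences from -0.10 for Mrpl42 to 1.15 for Mrpl52.

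The groups were compared with limma on the log2(FPKM + 1) scale over the 11018 genes that reached an FPKM of 1 in 2 or more libraries, with Benjamini-Hochberg adjustment across that whole set. A gene counted as called in 48p-HFSCs where its adjusted p was under 0.05 and its log2 difference was 1 or more in size, which is a 2-fold change. Log2 differences below are 48p-HFSCs minus 10p-HFSCs on this scale, which understates the change of genes with low FPKM. All 77 members passed the filter. Of these, 1 was called higher (Mrps16), whereas 10.8% of all genes tested were. Another was called lower (Mrpl3), against 9.15% of all genes tested. Calls in either direction therefore covered 2 of 77 members, or 2.60%, against 19.9% of all genes tested. At an unadjusted p under 0.05 there were 9 higher and 7 lower members, 20.8% of the family, against 37.4% of all genes tested. The difference was under 0.5 in size for 45 members and at least 1 for 12. Centred on the members' own median in each library, a scaling added after the values had been seen, 4 members were called higher (Mrps16, Mrpl23, Mrps33 and Mrpl30) and 3 lower (Mrpl3, Mrps6 and Mrpl40), against 5.84% and 5.62% of all genes tested.

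Mrps16 encodes bS16m, a small subunit protein with a bacterial counterpart that takes part in the assembly of the subunit. The gene lies on the minus strand at chr14:20389304-20393634 (mm10). Its FPKM was 44.2 and 69.0 in 10p-HFSCs, given here and below as replicate 1 and replicate 2, and 160 and 374 in 48p-HFSCs. The groups did not overlap, and in 48p-HFSCs replicate 2 was more than 2 times replicate 1. The log2 difference was 2.13 (SE 0.48) with an adjusted p of 0.0307 in limma. The call was not kept without replicate 2 of 48p-HFSCs, where the log2 difference was 1.52.

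Mrpl3 encodes uL3m, a large subunit protein with a bacterial counterpart that contacts the ribosomal RNA near the site of peptide bond formation. It lies on the plus strand at chr9:105053239-105079888, and its span overlaps an antisense gene, Gm47106, and a further unclassified gene, Gm38077, whose reads may be counted with it. The FPKM of Mrpl3 was 31.3 and 32.2 in 10p-HFSCs against 14.2 and 9.93 in 48p-HFSCs, with both 48p-HFSC libraries below both 10p-HFSC libraries. The log2 difference was -1.35 (SE 0.28, limma adjusted p = 0.0235). After each library's values were rescaled to an equal sum (TPM rescaling) it was -1.91 and missed the threshold (limma adjusted p = 0.0501). Mrpl3 was 1 of 3 members that were lower in replicate 2 than in replicate 1 of 48p-HFSCs. Without either replicate of 10p-HFSCs, neither Mrps16 nor Mrpl3 was called, with log2 differences of 1.81 and 2.44 for Mrps16 and of -1.37 and -1.33 for Mrpl3. Each of those fits holds 1 library of 10p-HFSCs, so that the spread between libraries comes from 48p-HFSCs alone. Few of all genes tested were called in them.

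The 250 bases before the start of these genes are shown because they were the members that were called, and a shared or differing promoter sequence can be read beside their opposite changes. The sequences are from RefSeq (GRCm38.p6), 5′ to 3′ on the strand of the gene. For Mrps16, which has more than 1 RefSeq start, the start that coincides with the end of the GENCODE gene was used. The window of Mrps16 is chr14:20393635-20393884 and that of Mrpl3 chr9:105053018-105053267. The GENCODE gene of Mrpl3 begins inside this window, so that the last bases shown, the ETS motif among them, lie within it. Capitals mark matches on either strand to motifs searched, which were the ETS motif (CCGGAAG), the SP1 motif (GGGCGG), the CCAAT box (CCAAT, or ATTGG on the other strand), the NRF1 motif, the YY1 motif (AANATGGCG), the E-box (CACGTG) and the TATA box (TATAAA).
Mrps16: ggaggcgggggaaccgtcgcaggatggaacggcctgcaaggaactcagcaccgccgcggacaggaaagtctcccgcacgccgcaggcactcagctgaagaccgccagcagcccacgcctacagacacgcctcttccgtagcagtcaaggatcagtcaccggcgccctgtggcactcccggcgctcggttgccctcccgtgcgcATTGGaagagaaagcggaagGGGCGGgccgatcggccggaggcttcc
Mrpl3: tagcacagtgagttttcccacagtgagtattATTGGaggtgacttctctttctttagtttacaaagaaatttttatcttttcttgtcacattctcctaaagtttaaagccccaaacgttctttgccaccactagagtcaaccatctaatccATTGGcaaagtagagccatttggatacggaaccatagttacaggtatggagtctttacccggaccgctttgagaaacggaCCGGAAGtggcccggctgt
The promoter window of Mrps16 is rich in G and C (68.0%) and holds a CCAAT box from base 47 to base 43 before the start and an SP1 motif from base 27 to base 22. That of Mrpl3 has a GC content of 42.8% and holds an ETS motif from base 19 to base 13 before the start and CCAAT boxes beginning at bases 99 and 219. The window of the other RefSeq start of Mrps16, which is not shown, does hold the ETS motif, so that the absence of ETS here depends on the start chosen. Neither window shown held the NRF1 motif, the YY1 motif, the E-box or the TATA box.

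Over the family, a RefSeq promoter window was found for 68 of the 77 members, covering 250 bases before and 50 after the start. The ETS motif, bound by GABP among other factors, was present in a window of 36.8% of these members, 21.7% of the tested genes with a window and 8.86% of all windows. The NRF1 motif, named after a regulator of nuclear genes for mitochondrial proteins, was present in 19.1%, 12.3% and 4.6%, and the YY1 motif in 14.7%, 6.60% and 2.38%. The SP1 motif was present in 50% of members and 70.1% of tested genes, the CCAAT box in 39.7% and 43.9%, the E-box in 7.35% and 12.2%, and the TATA box in 7.35% and 8.41%. These are counts of letters, and no binding was measured.

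Beyond Mrps16, the largest positive differences were those of Mrpl23, Mrps33, Mrpl30 and Mrpl52. Mrpl23, whose protein lies at the exit of the peptide tunnel, had an FPKM of 54.2 and 75.3 in 10p-HFSCs and of 124 and 379 in 48p-HFSCs, a log2 difference of 1.75 (SE 0.56, limma adjusted p = 0.0780). Mrps33, a small subunit protein specific to mitochondria, had 30.6 and 36.4 against 63.3 and 141 (1.47, SE 0.42, limma adjusted p = 0.0576). Mrpl30, a large subunit protein, had 76.6 and 130 against 161 and 480 (1.47, SE 0.59, limma adjusted p = 0.128). In each of these 3 genes the 48p-HFSC libraries were the highest of the 4. Replicate 2 of 48p-HFSCs was more than 2 times replicate 1, and none of these genes passed this test. GENCODE also lists a pseudogene of Mrpl23, with which reads may be shared.

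The most negative differences were those of Mrps2, Mrpl3, Mrps6, Mrps31 and Mrpl40. Mrps2 had an FPKM of 33.9 and 36.7 in 10p-HFSCs and of 19.0 and 6.38 in 48p-HFSCs, a log2 difference of -1.58 (SE 0.48, limma adjusted p = 0.0697). It was the lowest difference of the 77 members and was not called, and its 48p-HFSC libraries lay far apart. Mrps6 had 91.1 and 103 against 35.8 and 65.2 (-0.99, SE 0.35, limma adjusted p = 0.102). Mrps31 had 21.6 and 16.2 against 8.36 and 11.2, and Mrpl40 had 59.5 and 74.7 against 33.6 and 43.1, with log2 differences of -0.88 and -0.79. The groups did not overlap for any of these genes. The span of Mrps6 contains Slc5a3, a transporter of myo-inositol transcribed from the same strand, which was called lower (FPKM 11.7 and 10.9 in 10p-HFSCs, 1.86 and 1.28 in 48p-HFSCs; log2 difference -2.27, SE 0.28, limma adjusted p = 0.00436), and the sources do not state how reads in shared sequence were assigned. In all, 41 of the 77 members overlap another annotated gene, and the library kit marks strand but the strand setting of the counting is not given in the sources used here.

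**Figure D2:**
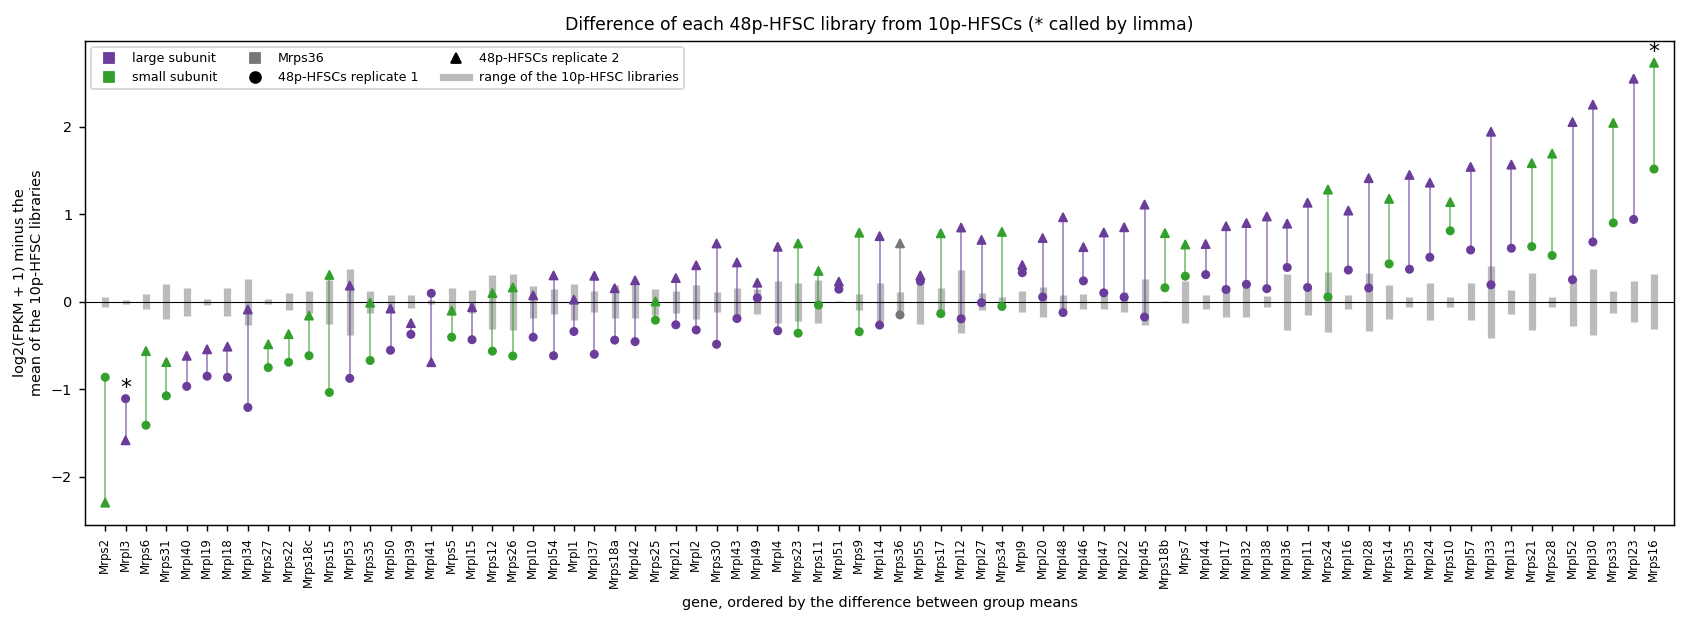
Difference of each 48p-HFSC library (circle, replicate 1; triangle, replicate 2) from the mean of the 10p-HFSC libraries on the log2(FPKM + 1) scale, for the 77 members ordered by their mean difference; grey bars span the 10p-HFSC libraries and colours give the subunit. The members ran from -1.58 (Mrps2) to 2.13 (Mrps16), the triangles lay above the circles for 74 of 77 members, and asterisks mark Mrpl3 and Mrps16, the members called.

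Some members have been studied more often than the others. Mrps12, whose protein lies at the decoding centre, had an FPKM of 55.7 and 86.0 in 10p-HFSCs and of 46.5 and 74.3 in 48p-HFSCs. Mrpl11, whose protein forms the base of the stalk, had 17.0 and 21 against 21.3 and 42.7. The log2 differences were -0.23 (SE 0.36) and 0.65 (SE 0.38), and that of Mrpl12 was 0.33 (SE 0.48). These differences were smaller than 2 standard errors, and the groups did not overlap for Mrpl11 alone.

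Mrps18a, Mrps18b and Mrps18c are paralogs whose proteins occupy different places, Mrps18c in the small subunit site of the bacterial protein, Mrps18b at a mitochondrion-specific site of the small subunit and Mrps18a in the large subunit. Mrps18c had the highest level in 10p-HFSCs, with an FPKM of 84.9 and 101.3, against 60.2 and 83.0 in 48p-HFSCs. Mrps18b had 46.7 and 46.2 against 52.1 and 80.8, and Mrps18a had 40.6 and 53.1 against 34.0 and 51.9. Their log2 differences were -0.39 (SE 0.29), 0.47 (SE 0.30) and -0.14 (SE 0.31), and none was called.

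Mrps36, which is not a mitoribosomal protein, had an FPKM of 62.7 and 73.2 in 10p-HFSCs and of 61.0 and 108 in 48p-HFSCs, with overlapping groups (0.26, SE 0.35). GENCODE lists pseudogenes of Mrps36, so that reads may be shared with them.

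The replicates were not level over the family. In 10p-HFSCs, 66 of the 77 members were higher in replicate 2 than in replicate 1, against 49.7% of all genes tested. In 48p-HFSCs, 74 of 77 were, against 50.3% of all genes tested, with Mrpl3, Mrps2 and Mrpl41 as the exceptions. The median difference between replicates was 0.28 in 10p-HFSCs and 0.72 in 48p-HFSCs for the members, on the log2 scale, and 0 and 0.01 for all genes tested. Compared with the mean of 10p-HFSCs, replicate 1 of 48p-HFSCs had a median of -0.14 with 34 of 77 members above, whereas replicate 2 had a median of 0.66 with 60 of 77 above. The direction of the family as a whole thus depended on which 48p-HFSC library was taken.

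Transcript length and depth were examined beside this replicate difference, and a relation with depth was not tested. Over the 77 members, Pearson's r between log2 transcript length and replicate 2 minus replicate 1 was -0.31 in 10p-HFSCs (Spearman's rho -0.32) and -0.29 in 48p-HFSCs (rho -0.31), and over all genes tested with a length r was -0.51 and -0.39. These are correlations across genes of the same libraries and are given as a description. The median transcript of a member was 1226 nt long, against 2762 nt for all genes tested. The 38 members with longer transcripts (median 2461 nt) had median replicate differences of 0.24 in 10p-HFSCs and 0.65 in 48p-HFSCs. For the 39 members with shorter transcripts (median 846 nt) these were 0.35 and 0.82. Judged from the ratio of low FPKM values, the depth of replicate 2 of 10p-HFSCs, replicate 1 of 48p-HFSCs and replicate 2 of 48p-HFSCs was 71.6%, 82.9% and 46.7% of that of replicate 1 of 10p-HFSCs, and the absolute depth is unknown. A correction of each library for length and GC content brought the median difference of the members to -0.06, while that of all genes tested was -0.02.

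**Figure D3:**
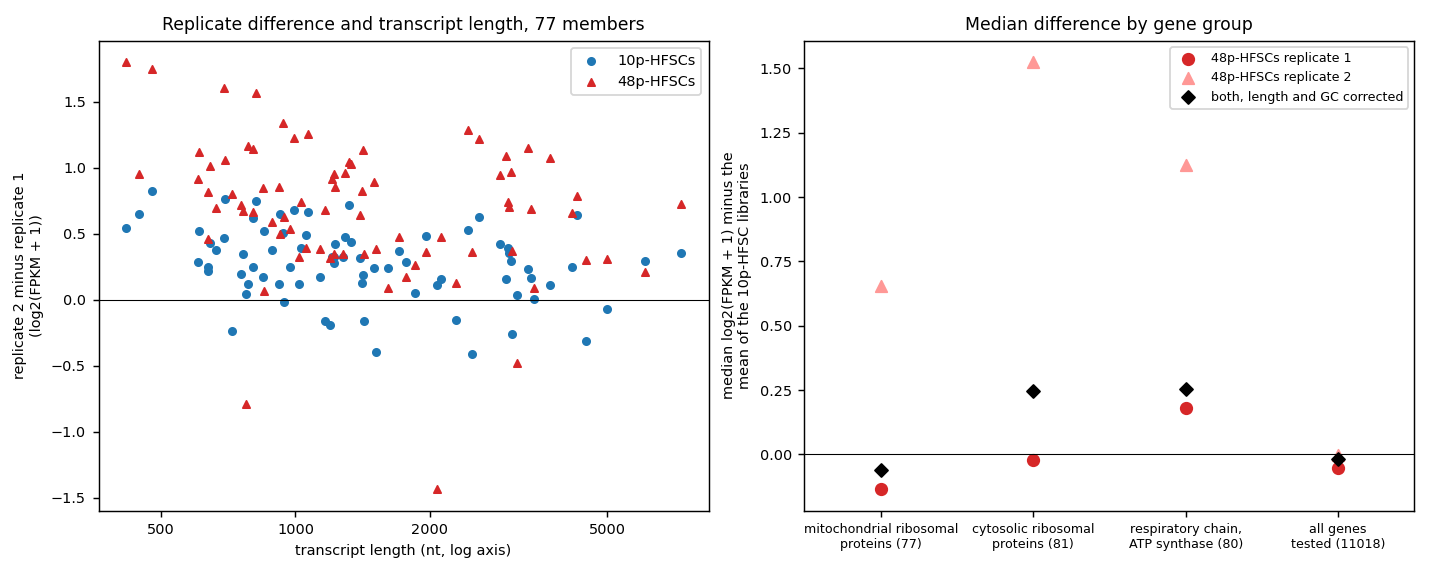
Left, replicate 2 minus replicate 1 (log2(FPKM + 1)) of the 77 members against transcript length (log axis), for 10p-HFSCs (blue circles) and 48p-HFSCs (red triangles); most points lie above 0. Right, median difference from the mean of 10p-HFSCs for each 48p-HFSC library (circle and triangle) and for both after correction for length and GC content (diamond) in 4 gene groups; replicate 2 stood at 0.66 for the members and at 1.52 for the cytosolic ribosomal protein genes.

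With both libraries of each group, the median log2 difference was 0.24 for the members (interquartile range 0.80 wide) and -0.03 for all genes tested (1.21 wide). The direction of the members' median was reversed when libraries were rescaled to an equal sum, where it was -0.34 and that of all genes tested was -0.56. The 48p-HFSC libraries were the highest pair of the 4 in 24 of 77 members (31.2%), close to the 31.7% of all genes tested. They were the lowest pair in 11 of 77 members (14.3%), against 34.3% of all genes tested, and the groups overlapped in 42 members. Across members, Pearson's r of the log2 values was 0.977 between the 10p-HFSC libraries, 0.955 between the 48p-HFSC libraries and 0.799 to 0.897 between libraries of different groups.

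The members' share of the summed FPKM does not depend on a factor common to all genes of a library. It was 0.660% and 0.699% of the sum in the 10p-HFSC libraries and 0.641% and 0.608% in the 48p-HFSC libraries. Both 48p-HFSC libraries lay below both 10p-HFSC libraries, the reverse of the order of the median log2 difference, with a difference of -0.0554 percentage points. An exact two-sided permutation test gave p = 0.333, the smallest that 2 libraries against 2 can give.

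Set beside 2 other nuclear gene groups, the mitoribosomal family showed the smaller median. The cytosolic ribosomal protein genes (Rpl and Rps symbols, 81 tested) had a median log2 difference of 0.78, and the nuclear genes of the respiratory chain and ATP synthase (80 tested) one of 0.66. Corrected for length and GC content, they were 0.24 and 0.25, against -0.06 for the members. In replicate 1 of 48p-HFSCs alone, the medians were -0.14 for the members, -0.02 for the cytosolic group and 0.18 for the respiratory group. In replicate 2 they were 0.66, 1.52 and 1.13, so that replicate 2 was the higher library in all 3 groups. Of the respiratory group 5 genes were called higher, 6.25% against 10.8% of all genes tested. The differences between these groups of genes were not tested.

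Between the subunits the difference was small. The median log2 difference was 0.30 for the 50 large subunit genes and 0.16 for the 26 small subunit genes. The log2 ratio of the summed FPKM of large over small subunit genes was 1.26 and 1.32 in the 10p-HFSC libraries and 1.18 and 1.38 in the others, so that the 10p-HFSC values lay between those of 48p-HFSCs (exact permutation p = 1, difference -0.01). Genes with a bacterial counterpart had a median of 0.36 (33 of 46 higher), and mitochondrion-specific genes one of -0.01 (15 of 30 higher). After the correction for length and GC content these medians were -0.02 and -0.10, and those of the large and small subunit genes were -0.07 and -0.03, in the opposite order. The log2 ratio of the summed FPKM of genes with a bacterial counterpart over mitochondrion-specific genes was 0.62 and 0.73 in 10p-HFSCs against 1.01 and 1.07 in 48p-HFSCs. Both 48p-HFSC libraries were above both 10p-HFSC libraries, by 0.36 on average, with the smallest exact permutation p possible, 0.333. Mrpl33, Mrpl30 and Mrpl23, abundant genes with high values in replicate 2 of 48p-HFSCs, have a bacterial counterpart. Mrpl52, with an FPKM of 758 in that library, is specific to mitochondria. The part of these genes in the ratio was not tested.

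The members are spread over many chromosomes, and their differences went in part with those of their chromosomes. Over the 77 members, the correlation between a member's log2 difference and the median of all other tested genes of its chromosome was 0.55 (Pearson) and 0.49 (Spearman), a description across genes that share libraries. It was 0.57 for replicate 1 and 0.50 for replicate 2 of 48p-HFSCs taken alone, and 0.58 after the correction for length and GC content. On chromosome 14, where the other 369 genes tested had a median of 0.43, the 3 members Mrps16, Mrpl52 and Mrpl57 had log2 differences of 2.13, 1.15 and 1.07. On chromosome 8, where the other 583 genes had a median of -0.60, Mrpl34 and Mrps31 had -0.65 and -0.88. Chromosome 16 (348 other genes, median -0.41) carries Mrpl39, Mrpl40 and Mrps6, at -0.31, -0.79 and -0.99. All 5 members of chromosome 3 were on the higher side (0.38 to 1.11; other genes 0.21), as was Mrpl13, the only member on chromosome 15 (1.09; other genes 0.26). There were exceptions. Mrpl3 on chromosome 9 and Mrps2 on chromosome 2 had differences of -1.35 and -1.58 where the other genes had medians of -0.13 and -0.12, and Mrpl33 on chromosome 5 had 1.07 where the other genes had -0.33. Copy number was not measured.

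**Figure D4:**
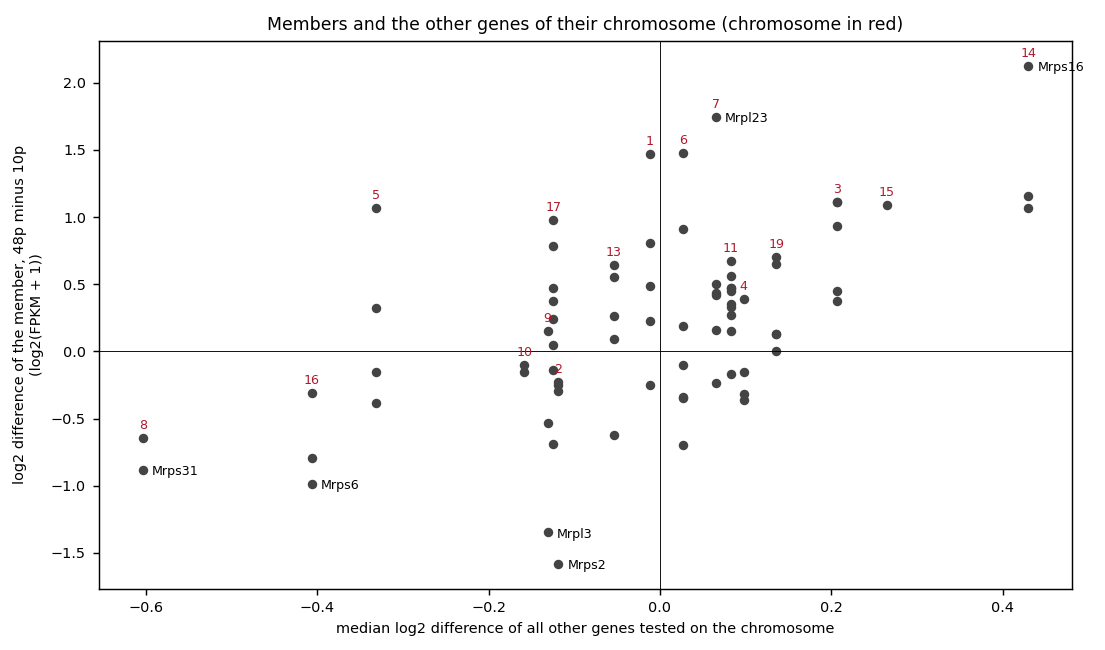
Log2 difference of each member (48p-HFSCs minus 10p-HFSCs, log2(FPKM + 1)) against the median log2 difference of all other genes tested on its chromosome, with the chromosome named in red above its highest member. The members of chromosome 14 lie at the upper right (1.07 to 2.13) and those of chromosomes 8 and 16 at the lower left (-0.99 to -0.31), with Mrpl3 and Mrps2 below and Mrpl23 above the general course.

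The surroundings of the called members were examined next, in a window chosen after the values were seen. Within 500 kb of the start of Mrps16 there were 17 other genes tested, of which 11 were called higher and 1 lower, where 10.8% of all genes tested were called higher. Their median log2 difference was 1.75. On one side lay Nudt13 (log2 difference 2.62), and on the other Anxa7 (1.76), Sec24c (1.75), Zswim8 (2.07), Camk2g (2.37) and Plau (3.55), all called higher in limma. The gene nearest to Mrps16, Dnajc9, which starts 4.72 kb away, had an FPKM of 21.2 and 23.1 in 10p-HFSCs and of 19.6 and 21 in 48p-HFSCs (-0.12, limma adjusted p = 0.742), and Ecd was at 0.01. The increase was therefore not shared by every gene of the window.

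Chchd1, 309 kb from Mrps16, encodes another protein of the small mitoribosomal subunit and falls outside the Mrpl and Mrps symbols. Its FPKM was 36.7 and 45.5 in 10p-HFSCs against 177 and 457 in 48p-HFSCs. The libraries of the groups did not overlap, and the log2 difference of 2.77 (SE 0.49, limma adjusted p = 0.0144) exceeded that of each of the 77 members. Both subunit genes called higher thus lay within 500 kb of each other. Within the same distance of Mrpl3 only 2 other genes were tested, Aste1 (-0.78) and Atp2c1 (-0.83), and neither was called. Across the 76 members with a tested neighbour within 500 kb, the correlation of the member's log2 difference with the median of its neighbours was 0.54 (Pearson) and 0.52 (Spearman), again as a description.

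**Figure D5:**
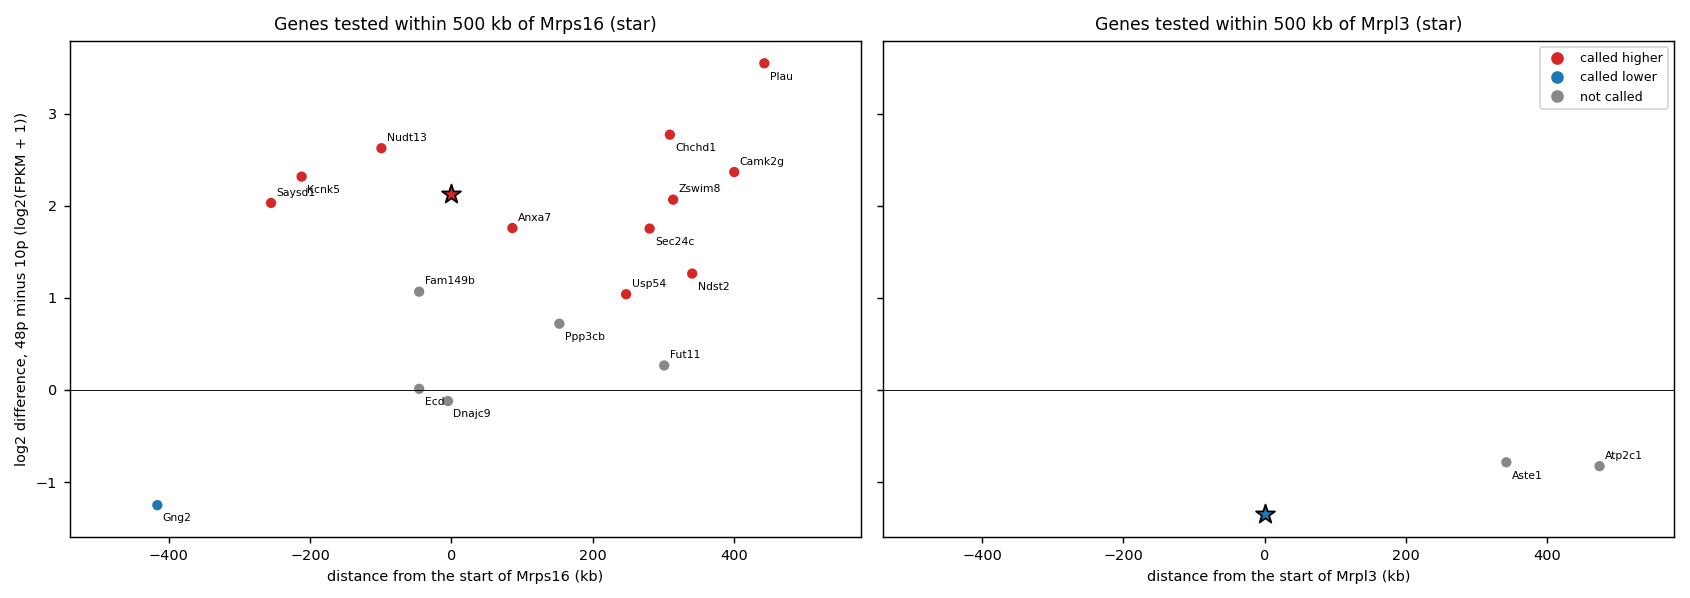
Log2 difference (48p-HFSCs minus 10p-HFSCs, log2(FPKM + 1)) of the genes tested within 500 kb of Mrps16 (left) and Mrpl3 (right), by distance of their starts in kb; the star is the member, red genes were called higher, blue lower and grey neither. Around Mrps16, 11 of 17 genes were called higher and Chchd1 and Plau lay above the member, whereas 2 genes were tested around Mrpl3.

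Many mitochondrial genes start back to back with a neighbour on the other strand. A divergent protein-coding gene starting within 1000 bases was found for 19 of the 77 members (24.7%), against 11.8% of all genes tested. Member and partner lay on the same side of 0 in 12 of the 19 pairs. Among the partners, Hira, a histone chaperone that starts 175 bases from Mrpl40, was called lower (FPKM 32.0 and 31.4 in 10p-HFSCs, 13.2 and 6.60 in 48p-HFSCs; log2 difference -1.65, limma adjusted p = 0.0267). Helq, a DNA helicase 29 bases from Mrps18c, was also called lower (7.25 and 6.17 against 2.30 and 0.871; -1.63, limma adjusted p = 0.0272). No other partner was called, where 9.15% of all genes tested were called lower and 10.8% higher. Mrpl40 and Mrps18c had smaller differences, -0.79 and -0.39, and were not called. Mrps18b and its partner Ppp1r10, 45 bases away, lay on opposite sides of 0, at 0.47 and -2.76, though the latter missed the threshold (limma adjusted p = 0.0508). Mrps12 shares its start region with Sars2, the mitochondrial seryl-tRNA synthetase, and they had log2 differences of -0.23 and 0.34.

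Other genes of mitochondrial translation were taken from lists, which were written with earlier results of these data known. Of the 6 mitoribosomal protein genes with other symbols that were tested, Chchd1 was called higher, 16.7% against 10.8% of all genes tested. None was called lower, against 9.15% of all genes tested (1 lower at an unadjusted limma p under 0.05). Dap3, a GTP-binding protein of the small subunit, was at 0.05 (SE 0.34), with an FPKM of 12.6 and 15.0 against 10.6 and 19.1. Of 25 assembly factors tested, 3 were called lower, 12% against 9.15% of all genes tested. By limma 0 were called higher, against 10.8% of all genes tested (1 at an unadjusted p under 0.05). Gtpbp10, a GTPase of large subunit assembly, fell from 7.65 and 7.93 to 0.0432 and 0.115 (-3.03, limma adjusted p = 0.00124). Ddx28, an RNA helicase, and Mettl15, an rRNA methyltransferase, were the others (-1.70 and -1.40). The list had a median of -0.20.

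Of 15 translation factors tested, 1 was called lower, 6.67% against 9.15% of all genes tested. It was Lrpprc, an RNA-binding protein that stabilizes mitochondrial mRNAs. It had an FPKM of 29.9 and 21.3 in 10p-HFSCs and of 12.3 and 9.98 in 48p-HFSCs (-1.12, SE 0.29, limma adjusted p = 0.0452), and was not called in 9 of 15 alternatives, among them TPM rescaling (limma adjusted p = 0.0972). None was called higher by limma, against 10.8% of all genes tested (1 at an unadjusted p under 0.05). The elongation factors Tufm and Gfm1 had log2 differences of -0.20 and -0.35, and the median of the list was 0.00. Of 20 aminoacyl-tRNA synthetase and amidotransferase genes tested, Cars2 (-1.79) and Yars2 (-1.43) were called lower, 10% against 9.15% of all genes tested. By limma 0 were called higher, against 10.8% of all genes tested (0 at an unadjusted p under 0.05). Cars2 lies on chromosome 8 and Yars2 on chromosome 16.

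Of 17 genes of mitochondrial transcription, DNA maintenance and biogenesis tested, 3 were called lower, 17.6% against 9.15% of all genes tested. By limma 0 were called higher, against 10.8% of all genes tested (1 at an unadjusted p under 0.05). Ppargc1a, a coactivator that drives mitochondrial biogenesis, had an FPKM of 22.3 and 18.2 in 10p-HFSCs and of 0.198 and 0.0167 in 48p-HFSCs (-4.26, SE 0.28, limma adjusted p = 0.000916). The mitochondrial helicase Twinkle, listed in the files as Peo1 and overlapping Mrpl43 on the opposite strand, fell from 21.4 and 22.2 to 9.07 and 3.38 (-1.78), whereas Mrpl43 was at 0.13. The transcription factor Tfb2m was the third (-1.41). After TPM rescaling Peo1 and Tfb2m, as well as Ddx28 of the assembly factors, missed the threshold (limma adjusted p = 0.0589, 0.0504 and 0.0740). Tfam, Polrmt, Nrf1 and Myc were not called, at -0.25, 0.38, -0.36 and 0.16. Ppargc1b was at 0 in 48p-HFSCs and was not tested.

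Markers of the labelled cell type and of others were examined beside these results. Of the 10 genes listed as markers of HFSCs and basal keratinocytes, Cd34, Lhx2 and Nfatc1 had an FPKM of at most 0.234 in every library. The other 7 were detected in all. Of the latter, the bulge markers Krt15 and Sox9 had an FPKM of 136 and 82.6 against 425 and 18.8, and of 45.6 and 44.2 against 20.2 and 8.31. Sox9 and Tcf3 (36.2 and 40.8 against 17.8 and 19.2) were called lower in 48p-HFSCs, and Itga6, which encodes CD49f, was called higher. The gene Tcf3 used here lies on chromosome 10. It is not Tcf7l1, which encodes the hair follicle factor also called TCF3, so its fall is not that of an HFSC marker. Krt5 (1805 and 1473 against 8156 and 5120) and Krt14 (1423 and 1217 against 3896 and 2439) were higher in both 48p-HFSC libraries. Neither was called (limma adjusted p = 0.181 and 0.282). For Trp63 (60.4 and 42.0 against 124 and 52.7) the groups overlapped. The summed FPKM of this list was 3538 and 2920 in 10p-HFSCs against 12740 and 7737 in 48p-HFSCs. After TPM rescaling neither Tcf3 nor Itga6 was called, and Krt5 had a limma adjusted p of 0.0403. In the paper, most cells of both groups were positive for CD34 protein. Its qRT-PCR found Cd34 maintained and Lhx2 and Sox9 increased in 48p-HFSCs, which these FPKM values do not show. Of the 8 fibroblast markers, Vim (FPKM 284 and 327 against 2.35 and 3.08) and Col1a2 were called lower in 48p-HFSCs, 6 had an FPKM under 1 in every library, and Dcn, Lum and Thy1 were at 0 throughout. Of the 6 leukocyte markers, Cd74, Cd68 and Lyz2 were called higher, while Ptprc was at most 0.0711 and Cd3e and Tyrobp were at 0. Lyz2 was not called after TPM rescaling or after the length and GC correction (limma adjusted p = 0.130 and 0.0578). Of the 6 melanocyte markers only Tyr was tested, and Dct and Sox10 were at 0 throughout. Tyr had an FPKM of 0.0945 and 0.286 against 1.33 and 9.48 and was not called (limma adjusted p = 0.0834, and 0.0239 after TPM rescaling). The summed FPKM of the fibroblast list was 353 and 388 against 2.50 and 3.32, that of the leukocyte list 7.94 and 7.51 against 117 and 183, that of the melanocyte list 1.24 to 1.29 against 3.85 and 11.7, and that of the endothelial list at most 2.87. The part of these cells or markers in the members' differences was not tested, and in bulk RNA fewer cells of a type and less RNA per cell cannot be told apart.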

How the data were processed

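Polyadenylated RNA was sequenced from 2 libraries of 10p-HFSCs and 2 of 48p-HFSCs with a stranded kit in 101 bp single-end mode. The authors deposited 1 FPKM value for each of 24346 gene symbols and library, computed against mm10 with Cufflinks per the paper and with TopHat2 2.1.1, Bowtie2 2.2.8, SAMtools 0.1.18 and Cuffdiff 2.2.1 per the submitters' processing notes. The paper names other versions of Bowtie2 and SAMtools. The gene annotation, the strand setting and the treatment of reads that map to several places are not given in the sources used here. FPKM values are not counts, so no count model was run, and no further scaling was applied.

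Members were matched by symbol (Mrpl or Mrps and a number). The members and the gene lists were chosen with earlier results of these data known. The comparison used limma 3.58.1 (R 4.3.3; lmFit, then eBayes whose variance prior followed the mean) on log2(FPKM + 1), over the 11018 genes that reached an FPKM of 1 in 2 or more libraries. Calls required a Benjamini-Hochberg adjusted p under 0.05 and a log2 difference of 1 or more in size. The fit was tested on simulated data with known changes and noise drawn independently for each library. The deviations of same-numbered libraries here had a correlation of 0.408, so the simulation does not cover that feature. Single values were compared by exact permutation of the libraries. Positions, lengths and overlaps came from GENCODE M21 (GRCm38, of which mm10 is another name), where 98.4% of the symbols were found, and promoters from RefSeq. Relative depth was read from the commonest ratio between libraries of FPKM values under 0.3, and no counting interval was available.

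The genes named were the members called, the 5 largest and the 5 most negative differences, the 5 highest mean levels, Mrps18a, Mrps18b, Mrps18c, Mrps12, Mrpl12, Mrpl11, Mrps36, listed genes that were called, and Tufm, Gfm1, Tfam, Polrmt, Lrpprc, Dap3, Myc and Nrf1. Slc5a3, Mrpl57, Mrpl34, Mrpl39, Mrpl13, Mrpl41, Mrpl43, Mrpl35, Mrpl19, Mrps30, Ppargc1b, and the neighbouring and divergent genes were named after their values were seen. Alternatives were another pseudocount, filter, scaling or variance prior, a spline correction of each library (4 degrees of freedom) for the length and the GC content of transcripts, the replicate number as a block, and each library left out in turn. Centring on the members' median and a share among the tested genes alone were added after the values had been seen.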

Additional observations from a re-analysis of the deposited data

How the results depend on the processing

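With 2 libraries per group, the number of members called depended on the setting, and so did the share of all genes tested that was called. Against 1 higher and 1 lower as reported (10.8% and 9.15% of all genes), there were 0 and 0 without a filter on low values (0.476% and 0.468%), where the limma adjusted p of Mrps16 and Mrpl3 was 0.244 and 0.118. After TPM rescaling there were 2 higher and 3 lower (5.65% and 7.37%), the latter Mrpl18, Mrpl40 and Mrps6 without Mrpl3. Quantile normalization gave 3 and 2 (11.7% and 11.4%), the length and GC correction 6 lower (9.96%), and centring on the members' median, which was added after the values had been seen, 4 and 3 (5.84% and 5.62%). Leaving out a library leaves 1 library in its group. The members called then changed with the library left out. The members' median log2 difference in these fits is given below. With the replicate block there were 9 higher (11.7% of members, 14.6% of all genes), among them Mrpl23, Mrps33 and Mrpl30, and 2 lower (2.60% and 13.6%), Mrpl3 and Mrps2. With the block and the length and GC correction there were 4 and 7 (13.7% and 12.2% of all genes). Both groups use the same replicate numbers, but the labels do not say what they mark, and the deviations of same-numbered libraries had a correlation of 0.408 across 11018 genes. Mrps16 and Mrpl3 were each called in 12 of 16 fits, 23 members in at least 1 and 54 in none. The causes were not tested.

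The members' median log2 difference of 0.24 became -0.34 after TPM rescaling, which moved the median of all genes by -0.52, and ranged from -0.14 to 0.66 over the libraries left out, with -0.14 without replicate 2 of 48p-HFSCs. Less the median of all genes, it was 0.28, and -0.082 to 0.66 over the libraries left out. The members' share of the summed FPKM was lower in 48p-HFSCs in each alternative run (-0.07 to -0.04 percentage points with a library left out). The sign turned in at least 1 alternative, centring aside, for 43 of the 77 members, 30 of them after TPM rescaling, and for neither of the members called. Among the members described by name, Mrpl12 was at -0.26 after TPM rescaling, -0.16 after quantile normalization and -0.11 after the length and GC correction with or without the block, Mrps18b at -0.10 after TPM rescaling and -0.037 after that correction, with or without the block, and Mrps36 at -0.32, -0.024 and -0.29 in the order given for Mrpl12. With a library left out, the range crossed 0 for Mrpl42 (-0.45 to 0.25), Mrpl12 (-0.19 to 0.85), Mrps18a (-0.44 to 0.16), Mrps12 (-0.56 to 0.10) and Mrps36 (-0.15 to 0.67).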
